A study of Mus musculus with 24 samples.

Results

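The 9 genes described here encode chemokines that attract lymphocytes and the receptors that read them: the ligands Cxcl9, Cxcl10 and Cxcl11 with their shared receptor Cxcr3, the ligands Ccl5, Ccl3 and Ccl4, and the ligand Cxcl16 with its receptor Cxcr6. They were taken by gene symbol from a list, among 35976 genes in the deposited tables, and all 9 were found. The question asked of them was which of these ligands the tumor cells themselves make. RNA sequencing compared Sun1 knockout with wild-type CT26 cells, a colon carcinoma line of BALB/c mice. Sun1 encodes an inner nuclear membrane protein of the complex that links the nucleus to the cytoskeleton.

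The 24 libraries fall into 8 groups. Whole tumors were collected 14 days after subcutaneous injection and gave 7 libraries from the Sun1 knockout line and 8 from control line 1, which is wild type for Sun1. Tumor cells purified with a mouse tumor cell isolation kit from tumors collected 14 days after injection gave 2 libraries of the knockout line, 2 of control line 1 and 2 of control line 2, also wild type. Cells cultured in RPMI medium with fetal bovine serum gave 1 library of each of the 3 lines. The labels name 1 knockout line, so the genotype cannot be told apart from other properties of that line. They do not say whether replicates are separate animals, so the p-values here rest on the spread between these libraries, which may be technical. In whole tumors, fewer cells of a type and less RNA per cell cannot be told apart.

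Chemokines are small secreted proteins that bind receptors coupled to inhibitory G proteins and draw cells up their gradient. Cxcl9, Cxcl10 and Cxcl11 are induced by interferons, and Cxcr3 is carried by activated T cells and natural killer (NK) cells. Ccl3, Ccl4 and Ccl5 are inflammatory chemokines of the CC class that draw T cells and monocytes, and are themselves made by activated T and NK cells as well as by macrophages. Cxcl16 is made as a membrane protein that the proteases Adam10 and Adam17 can shed, and Cxcr6 marks resident and effector T cells and NKT cells.

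Total expected counts per library, the read numbers that RSEM assigns to genes, ran to 14140769 to 24651279 in tumors, 17068356 to 22593612 in purified cells and 18832201 to 20716917 in culture. Levels of a gene are given as CPM, counts scaled to a common library size, in which 3 counts correspond to 0.122 to 0.198 CPM. Sun1 measured 33.7 to 64.8 CPM in the knockout libraries and 110 to 214 CPM in the control libraries of all settings. The 6 general leukocyte markers (Ptprc, Cd52, Cd53, Coro1a, Laptm5 and Itgb2) summed to 559 to 913 CPM in knockout tumors and 323 to 615 CPM in control tumors. They summed to 12.9 to 22.2 CPM in purified cells and 9.76 to 15.1 CPM in culture, and Itgb2 made up most of this (16.1 CPM in purified knockout cells and 13.4 CPM in purified cells of control line 1). The 12 T cell markers summed to 0.369 to 2.85 CPM in purified cells, 84.2 to 264 CPM in tumors and 0.671 to 1.76 CPM in culture. The 9 colon epithelium markers summed to 101 to 207 CPM in purified cells, 41.2 to 182 CPM in tumors and 117 to 224 CPM in culture, mostly from Krt20 and, in the control lines, Krt18, whereas Epcam and Krt19 were at 0 in all purified and cultured libraries. The 7 fibroblast markers summed to 3578 to 6065 CPM in purified cells, 2250 to 3516 CPM in tumors and 1455 to 1898 CPM in culture.

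Cxcl10 and Ccl5 were the members transcribed by tumor cells in culture, where no host cells were present. Both were present in each of the 9 libraries of cultured and purified cells, with 28 or more counts per library. In purified cells Cxcr3, Ccl3, Ccl4 and Cxcr6 had at most 8 counts in any library, Cxcl16 at most 26, Cxcl9 at most 62 and Cxcl11 at most 93. In culture none of these 7 members had more than 8 counts in any library.

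**Figure D1:**
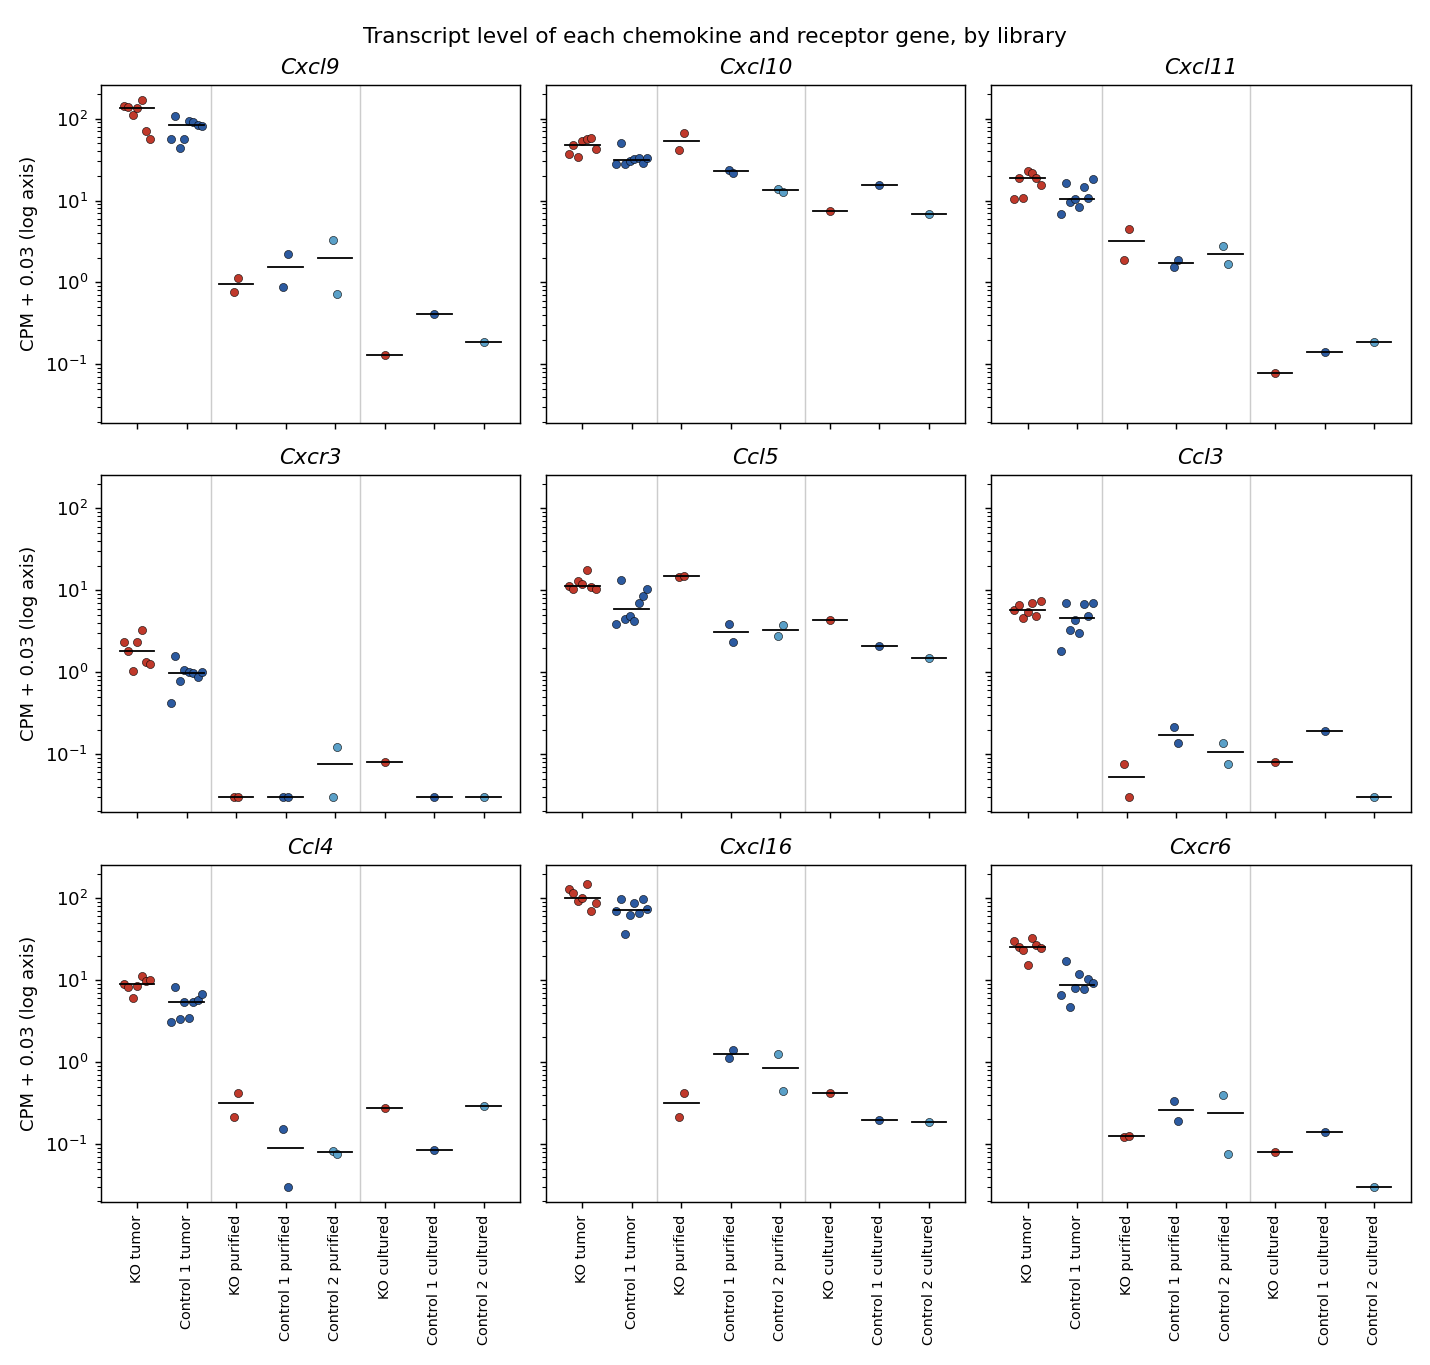
CPM of each gene in every library, on a log axis after adding 0.03 CPM so that zeros can be drawn; points are libraries and black lines are group medians. Cxcl10 lies between 6.81 and 66.2 CPM and Ccl5 between 1.45 and 17.5 CPM in all settings, whereas Cxcl16 lies between 0.155 and 1.38 CPM in purified and cultured cells and between 36.3 and 149 CPM in tumors.

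Cxcl10 lies on chromosome 5 from 92346638 to 92348889 (GRCm38), between Cxcl9 (92321331 to 92328079) and Cxcl11 (92359544 to 92363296). The promoter windows of Cxcl10 and its neighbour Cxcl9, a ligand of the same receptor, are shown because their levels in purified cells differed. Relative to whole tumors, purified cells held 115% of Cxcl10 in the knockout line and 68.3% in control line 1. For Cxcl9 these values were 0.770% and 1.99%. The windows run from 250 bases before to 50 after the start, on the minus strand, at chr5:92348840-92349139 for Cxcl10 and chr5:92328030-92328329 for Cxcl9 (RefSeq, GRCm38.p6, from the C57BL/6J reference and not from CT26). Capitals mark matches to the interferon-stimulated response element core GAAANNGAAA or to the kappaB consensus.
Cxcl10: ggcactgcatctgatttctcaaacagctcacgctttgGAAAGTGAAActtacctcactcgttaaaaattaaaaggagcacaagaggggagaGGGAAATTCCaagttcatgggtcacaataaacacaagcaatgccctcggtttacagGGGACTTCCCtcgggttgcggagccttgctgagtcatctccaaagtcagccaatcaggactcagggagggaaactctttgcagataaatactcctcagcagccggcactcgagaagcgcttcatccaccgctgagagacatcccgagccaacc
Cxcl9: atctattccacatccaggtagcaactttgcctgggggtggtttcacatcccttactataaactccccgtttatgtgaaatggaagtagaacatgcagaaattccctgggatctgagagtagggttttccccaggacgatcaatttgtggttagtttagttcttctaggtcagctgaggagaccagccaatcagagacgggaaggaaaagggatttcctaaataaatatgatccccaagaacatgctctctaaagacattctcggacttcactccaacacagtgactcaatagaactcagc
The Cxcl10 window holds 1 match to the response element core, 213 bases before the start, and 2 matches to the kappaB consensus, 159 and 103 bases before it. The Cxcl9 window holds none of these, and neither holds the gamma-activated site TTCNNNGAA. Both strands were searched, and no matches overlapped. Among 32851 mouse promoter windows of this length, 3.44% hold the response element core, 4.51% the kappaB consensus and 8.3% the gamma-activated site. The table used held 5 of the 9 members, and the windows of Cxcr3, Ccl3 and Cxcr6 had no match to the 3 motifs either. A match is a run of letters and was not tested for binding. Only these letters were searched, so a variant site would be missed. The part of the motifs in the difference between Cxcl10 and Cxcl9 was not tested.

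In purified cells Cxcl10 measured 41.2 and 66.2 CPM in the knockout line, 23.8 and 21.7 CPM in control line 1 and 14.0 and 12.7 CPM in control line 2. Cultured, the knockout line held 7.44 CPM of it, against 15.5 CPM in control line 1 and 6.81 CPM in control line 2. Each purified library of the knockout line and of both control lines was thus above the cultured library of its own line. Within lines, purified cells exceeded cultured cells by 1.38 ± 0.45 on the log2 scale (SE; edgeR quasi-likelihood test, adjusted p = 0.0464). This call is close to the threshold and was lost when any of 6 single libraries was left out, which gave adjusted p values of 0.0535 to 0.0937. Art3, a gene within whose span Cxcl10 and Cxcl11 lie, measured 0 to 0.0459 CPM in purified and 0 to 0.0493 CPM in cultured cells.

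Ccl5, a chemokine that attracts T cells, monocytes and eosinophils, lies on chromosome 11 from 83525778 to 83530518. This is within the span of the long non-coding RNA gene Gm32650 (83511289 to 83546540), whose level was not examined. In purified cells Ccl5 measured 14.4 and 15.1 CPM in the knockout line, 3.82 and 2.33 CPM in control line 1 and 2.74 and 3.74 CPM in control line 2. Cultured cells held 4.29 CPM in the knockout line, 2.08 CPM in control line 1 and 1.45 CPM in control line 2. As with Cxcl10, every purified library was above the cultured library of its own line. The difference within lines was 1.23 ± 0.27 on the log2 scale (edgeR adjusted p = 0.00255), and it stayed called in each fit that left out 1 library, with adjusted p values up to 0.0328.

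Cxcl11 and Cxcl9, the other Cxcr3 ligands, were higher in purified than in cultured cells as well, from a far lower base. Cxcl11 measured 1.84 and 4.502 CPM in purified knockout cells and 1.52 to 2.74 CPM in the 4 purified control libraries, against 0.0493 to 0.155 CPM (1 to 3 counts) in culture. The log2 difference was 4.41 ± 0.58 (edgeR adjusted p = 8.26e-05). Cxcl11 is annotated as a transcribed pseudogene in the reference, which is from another strain than the BALB/c mice of this tumor line. Whether that label holds for the gene in these cells was not tested. Its reads show transcription and do not tell whether a protein is made. Cxcl9 measured 0.734 and 1.11 CPM in purified knockout cells and 0.693 to 3.27 CPM in purified control cells, against 0.0986 to 0.384 CPM in culture, a log2 difference of 2.79 ± 0.68 (edgeR adjusted p = 0.00515). Cxcl16 measured 0.184 to 1.38 CPM in purified cells and 0.155 to 0.394 CPM in culture, where its log2 difference of 1.47 ± 0.69 was not called (edgeR adjusted p = 0.101). Without the cultured knockout library it was 2.62 and called (adjusted p = 0.0158), and without other single libraries it reached down to 0.80. Of the 5 members tested between purified and cultured cells, 4 were higher and 0 lower, beside 22.6% higher and 21.7% lower (44.3% in all) over the 12287 genes tested. Cxcl11, Cxcl9 and Cxcl16 had fewer than 10 counts in every cultured library and passed the filter on low counts through purified libraries alone. They could hardly have been called lower, so their calls as higher are a description of where they were high. Cxcr3, Ccl3, Ccl4 and Cxcr6 did not pass the filter on low counts.

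Of 8 listed genes of interferon-gamma signalling 7 were tested between purified and cultured cells, 4 were higher and 1 lower, beside 22.6% higher and 21.7% lower over all genes. Irf1, a transcription factor induced by interferons, averaged 159 CPM in purified cells and 27.7 CPM in culture (log2 difference 2.50 ± 0.31, edgeR adjusted p = 0.000861), and Socs1, a feedback inhibitor, 32.8 CPM in purified cells and 8.48 CPM in culture (1.95 ± 0.17, adjusted p = 3.62e-06). The receptor chains Ifngr1 and Ifngr2 rose by 1.04 and 1.02, whereas the kinase Jak2 fell by 0.492 on the log2 scale. Interferon gamma itself had 0 counts in purified knockout cells and 2 counts in each purified control line. Of 5 leukocyte markers tested 2 were higher in purified cells, and 3 of 10 macrophage markers were, beside 22.6% higher over all genes. The 2 leukocyte markers were Laptm5 and Itgb2, and Itgb2 averaged 9.28 CPM in culture. Ptprc, the pan-leukocyte antigen CD45, averaged 1.24 CPM in purified cells and 0.446 CPM in culture (1.29 ± 0.59, edgeR adjusted p = 0.0929). In the knockout line Ptprc was 0.520 CPM in purified and 0.592 CPM in cultured cells, and in the control lines it averaged 1.60 and 0.373 CPM. The part of residual host cells in these differences was not tested.

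The remaining members were largely lost when tumor cells were purified, as were most markers of leukocytes: all 6 general, 12 T cell and 6 NK cell markers were lower in both lines, and of 10 macrophage markers 10 were lower in the knockout line and 9 in control line 1. Of 7 fibroblast markers 3 were higher and 2 lower in the knockout line and 5 higher and 0 lower in control line 1, and 0 of 5 skeletal muscle markers were called in either line. The comparison of purified cells with whole tumors of the same line asks how the level of each transcript in tumor cells stands to its level in whole tumors. It does not give the share of a tumor's transcript that its tumor cells hold, which would need the fraction of tumor cells. CPM is relative to all RNA of a library, so a level in purified cells equal to that in tumors means that tumor cells had the average level of the whole tumor. Members near 0 in purified cells passed the filter through the tumor libraries alone, so that their calls as lower are a description of where they were high.

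Cxcl10 in purified knockout cells stood at 115% of its level in knockout tumors (34.3, 47.9 and 57.7 CPM as lowest, median and highest of 7), with a 95% exact interval of 109 to 121% that covers counting error only. Between samples this difference was not called (log2 0.17 ± 0.23, edgeR adjusted p = 0.554), and it was -0.198 without the second purified library. In control line 1 the purified level was 68.3% of that in tumors (28.1, 31.2 and 51.0 CPM, n = 8), a fall by 0.579 on the log2 scale with adjusted p = 0.0248. That call was lost without either purified library (adjusted p = 0.0917 and 0.172), without control tumor 8 (0.0521) and without the filter on low counts (0.0623). Ccl5 stood at 121% of the tumor level in the knockout line (log2 0.25 ± 0.18, adjusted p = 0.247, and 0.34 with adjusted p = 0.0397 without knockout tumor 5) and at 42.4% in control line 1 (log2 -1.24 ± 0.51, adjusted p = 0.0588). The Ccl5 difference of control line 1 passed the threshold in 5 alternatives, with adjusted p values of 0.0376 to 0.0483.

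Cxcl11 kept 18.8% of its tumor level in purified knockout cells and 14.1% in control line 1. These are falls by 2.44 and 2.85 on the log2 scale (edgeR adjusted p = 0.000880 and 6.95e-05). Cxcl9 kept 0.770% and 1.99%, and Cxcl16 kept 0.263% and 1.66%, in the knockout line and control line 1. Markers of host cells spanned a wide range of such percentages. By the ratio of mean CPM in the knockout line and in control line 1, Ptprc kept 0.276% and 1.45%, the macrophage receptor Csf1r 0.362% and 1.37%, the complement gene C1qa 0.295% and 1.49% and the mannose receptor Mrc1 1.47% and 3.50%. Itgb2 kept 12.2% and 13.3% and the phagocyte kinase Mertk 59.3% and 75.99%, and both were also present in culture. On this scale Cxcl9, at 0.785% and 1.98%, lay above Ptprc, Csf1r and C1qa and below Mrc1 in both lines. These markers also had reads in the cultured knockout line, at 0.592 CPM for Ptprc, 0.296 for Csf1r, 1.28 for C1qa and 1.18 for Mrc1. The part of residual host cells in the purified level of Cxcl9 was not tested.

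The receptors Cxcr3 and Cxcr6 and the ligands Ccl3 and Ccl4 were close to 0 in purified cells. Cxcr3 had 0 counts in purified knockout cells and in control line 1. Counted as 3 over the group, this is 26.7-fold lower than knockout tumors and 11.1-fold lower than control tumors. The 95% exact intervals for 0 counts reach down to 21.6-fold and 8.95-fold. Cxcr6 had 4 counts in purified knockout cells and 8 in control line 1, or 0.369% and 2.37% of the tumor levels. Ccl3 had 1 count in purified knockout cells, 251-fold lower than in tumors with a 95% interval of 44.98 to 9940, and 5 counts in control line 1. Ccl4 had 12 counts in purified knockout cells, 3.17% of the tumor level, and 2 counts in control line 1, 92.4-fold lower with an interval of 25.5 to 764. In all, 7 of 9 members were lower in purified than in whole knockout tumors, where 31.1% of 14569 genes were lower and 25.3% higher (56.4% in all), and 8 of 9 in control line 1, where 30.2% of 14331 genes were lower and 23.7% higher (53.9% in all).

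**Figure D2:**
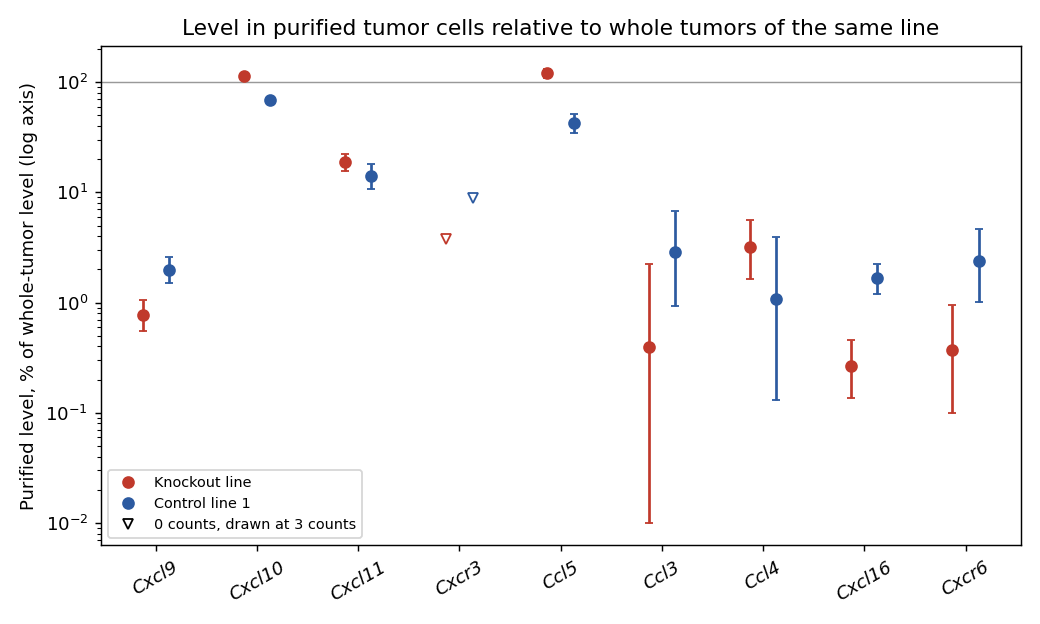
Level in purified cells as a percentage of the level in whole tumors of the same line, from counts summed over the libraries of a group, on a log axis. Bars are 95% exact intervals for counting error and open triangles are genes with 0 counts, drawn at the floor of 3 counts over the group; Cxcl10 and Ccl5 lie at 115% and 121% in the knockout line and at 68.3% and 42.4% in control line 1, and Cxcl16 at 0.263% and 1.66%.

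The order of the levels differed between settings. Levels of different genes are set side by side in TPM, the deposited measure that corrects for transcript length. In knockout tumors Cxcl16 (median 69.7 TPM), Cxcl10 (66.0), Cxcl9 (56.8) and Ccl5 (54.7) formed an upper group whose neighbours overlapped between tumors. Ccl4 (28.9 TPM), Cxcr6 (17.3), Cxcl11 (15.03) and Ccl3 (13.2) followed without overlap with Ccl5, and Cxcr3 was lowest at 1.49 TPM. In control tumors the same genes had the highest levels, but each neighbour in the order down to Cxcr6 overlapped the next, with medians of 55.2 TPM for Cxcl16, 47.1 for Cxcl10, 37.0 for Ccl5 and 34.6 for Cxcl9. In purified knockout cells Ccl5 (86.3 and 93.5 TPM) and Cxcl10 (65.1 and 107 TPM) overlapped, and Cxcl11 came next at 1.74 and 4.35 TPM. In purified cells of control line 1 Cxcl10 (33.1 and 37.5 TPM) was above Ccl5 (13.7 and 22.5 TPM), and in cultured cells the knockout line had more Ccl5 (26.7 TPM) than Cxcl10 (12.0 TPM), whereas control line 1 had 12.8 TPM of Ccl5 and 25.6 TPM of Cxcl10 and control line 2 had 9.47 TPM of Ccl5 and 11.8 TPM of Cxcl10.

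Purified knockout cells expressed more Cxcl10 and Ccl5 than purified control cells. This comparison asks whether loss of Sun1 goes with a change of the tumor cells themselves. For Cxcl10 both knockout libraries (41.2 and 66.2 CPM) lay above all 4 control libraries (12.7 to 23.8 CPM), a difference of 1.58 ± 0.28 on the log2 scale (edgeR adjusted p = 0.0210). For Ccl5 both knockout libraries (14.4 and 15.1 CPM) also lay above all 4 control libraries (2.33 to 3.82 CPM), a log2 difference of 2.23 ± 0.24 (edgeR adjusted p = 0.00127). Without the second knockout library the log2 fold change of Cxcl10 was 1.21 and no longer called (adjusted p = 0.256). Without the filter on low counts it was not called either (adjusted p = 0.0513). Ccl5 stayed called in all alternatives tried, with adjusted p values up to 0.0377.

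Of the 5 members tested in purified cells 2 were higher and 0 lower, beside 2.26% higher and 2.29% lower (4.55% in all) over 12476 genes. Cxcl11 had a log2 fold change of 0.71 ± 0.44 (adjusted p = 0.382), and its second knockout library (4.502 CPM) was above all controls while the first (1.84 CPM) lay among them. Cxcl9 (-0.91 ± 0.68, adjusted p = 0.478) and Cxcl16 (-1.81 ± 0.69, adjusted p = 0.171) were not called, and both Cxcl16 values of the knockout line (0.184 and 0.387 CPM) lay below all 4 controls (0.416 to 1.38 CPM). Against control line 1 alone, Cxcl16 passed the threshold at -2.09 (edgeR adjusted p = 0.0253). It had 4 and 8 counts in the purified knockout libraries and passed the filter on low counts through control libraries alone. That call is thus a description of where Cxcl16 was high.

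No tested marker of leukocytes (6 tested), macrophages (10), T cells (2), NK cells (1) or B cells (1) was called between purified knockout and control cells. Over all 12476 genes 4.55% were called. Among 3 skeletal muscle markers tested, the myosin gene Myh4 was higher, at 8.56 CPM in knockout cells and 0.149 CPM in control cells (log2 fold change 5.73 ± 1.11, edgeR adjusted p = 0.0350). The 5 muscle markers summed to 3.07 and 31.2 CPM in purified knockout cells and 1.15 to 1.84 CPM in purified control cells, with the higher value in the library that also had the higher Cxcl10. Of 5 colon epithelium markers tested the keratin gene Krt18 was lower, at 0.445 CPM in knockout cells and 43.1 CPM in control cells (log2 -6.57 ± 0.48, adjusted p = 0.000449). In culture, where no host cells were present, Myh4 was 1.73 CPM in the knockout line and averaged 0.0532 CPM in the control lines. Krt18 was 0.592 CPM in the cultured knockout line and averaged 94.4 CPM in the cultured control lines. The part of muscle or other cell types in the differences of Cxcl10 and Ccl5 was not tested. The 6 leukocyte markers summed to 17.1 and 19.4 CPM in purified knockout cells and 12.9 to 22.2 CPM in purified control cells. Most of this was Itgb2, at 16.1 CPM in knockout and 11.2 CPM in control cells, which cultured cells also expressed. Itgb2 was the only 1 of the 6 with a positive fold change, and their median log2 fold change was -1.33. Of the 10 macrophage markers 0 had a positive fold change. The 12 T cell markers summed to 0.872 and 1.74 CPM in knockout cells and 0.369 to 2.85 CPM in control cells, and the 10 macrophage markers to 15.8 and 16.1 CPM in knockout cells and 24.6 to 34.4 CPM in control cells. The 6 NK cell markers summed to 2.16 and 4.21 CPM in knockout cells and 0.462 to 1.69 CPM in control cells. Of this, Eomes, a transcription factor of NK and T cells, was 2.02 and 3.82 CPM in knockout cells and 0 to 0.741 CPM in control cells (log2 fold change 3.44 ± 0.85, adjusted p = 0.0582). The NK receptor gene Ncr1 was at 0 and 0.0459 CPM in the knockout libraries and 0 to 0.211 CPM in the control libraries. The B cell factor Pax5 averaged 2.23 CPM in knockout cells and 0.326 CPM in control cells (adjusted p = 0.113), and Ptprc averaged 0.520 and 1.60 CPM in knockout and control cells (adjusted p = 0.186). In culture Eomes and Pax5 were 1.13 and 0.345 CPM in the knockout line and averaged 0.0516 and 0.0258 CPM in the control lines.

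Other chemokine genes gave no call in purified knockout cells, among 2 tested of the 14 other chemokines of lymphocytes and dendritic cells, 8 of the 15 myeloid chemokines and 3 of the 15 other receptors. The share called over all 12476 genes was 4.55%. Ccl2, the main attractant of monocytes, averaged 33.2 CPM in knockout cells and 26.3 CPM in control cells (log2 fold change 0.34, adjusted p = 0.619), and Cxcl1, a neutrophil attractant, 6.05 CPM in knockout cells and 4.25 CPM in control cells (0.50, adjusted p = 0.560). Of the 8 myeloid chemokines tested 3 had positive fold changes, and Ccl9, at 5.95 CPM in knockout cells and 29.7 CPM in control cells, had one of -2.32 (adjusted p = 0.0698). Among 5 atypical receptors Ccrl2, which binds chemerin without signalling, rose, with 4.04 CPM in knockout cells and 1.09 CPM in control cells (1.89 ± 0.42, adjusted p = 0.0384). The scavenging receptor Ackr3, which binds Cxcl12 and Cxcl11, averaged 49.5 CPM in knockout cells and 18.8 CPM in control cells, below the threshold (1.41 ± 0.38, adjusted p = 0.0873). Of 7 interferon-gamma genes tested, 0 rose and Ifngr1 fell by 0.951 on the log2 scale (adjusted p = 0.00467).

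In culture the knockout line showed no called difference in either member tested, and edgeR called 0 of 12175 genes (0%), with 1 knockout library and 1 residual degree of freedom. At an unadjusted p under 0.05 there were 659 genes. DESeq2 called 49 genes, and edgeR called 8 when scaled by library size only and 95 without the filter on low counts, none of them a member. Cxcl10 was 7.44 CPM in the knockout line, between the control lines at 15.5 and 6.81 CPM (log2 fold change -0.59 ± 0.54, edgeR adjusted p = 0.964). Ccl5 was 4.29 CPM in the knockout line, above 2.08 and 1.45 CPM in the control lines (1.27 ± 0.57, adjusted p = 0.947). The other 7 members did not pass the filter on low counts.

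In whole tumors 5 of the 9 members were higher in knockout than in control tumors and 0 were lower. The background was high, since over 13752 genes the test called 18.1% higher and 19% lower, 37.1% in all. The called members were Cxcr6 and Cxcr3, which are the receptors, with Cxcl10, Ccl5 and Ccl4. In none of the 9 genes were the knockout and control tumors wholly apart, which was so for 3.12% of all genes in the higher and 6.08% in the lower direction.

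Cxcr6 differed most among members. Its lowest, median and highest levels were 15.2, 25.7 and 32.6 CPM in 7 knockout tumors and 4.62, 8.65 and 16.9 CPM in 8 control tumors. All but 1 knockout tumor lay above every control tumor, and all but 1 control tumor, replicate 2, lay below every knockout tumor. The log2 fold change was 1.44 ± 0.22 (edgeR adjusted p = 0.000200). Its ligand Cxcl16 measured 69.7, 100.02 and 149 CPM in knockout tumors and 36.3, 72.3 and 98.6 CPM in control tumors, and its difference of 0.53 ± 0.20 was just short of the threshold (adjusted p = 0.0566). Cxcr6 lies on chromosome 9 within the span of Fyco1 (13.6 to 18.7 CPM in purified cells, 16.2 to 30.02 CPM in tumors), and Cxcl16 overlaps the end of Zmynd15 (0.0924 to 0.242 CPM in purified cells, 5.40 to 18.8 CPM in tumors). Whether reads were counted by strand is not given in the sources used here.

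Cxcr3 was low throughout, at 1.01, 1.79 and 3.20 CPM in knockout tumors and 0.396, 0.952 and 1.53 CPM in control tumors. In 4 of 7 knockout tumors it lay above all control tumors, and the log2 fold change was 1.01 ± 0.28 (edgeR adjusted p = 0.00792). Of its ligands, Cxcl10 was called, with 34.3, 47.9 and 57.7 CPM in knockout tumors and 28.1, 31.2 and 51.0 CPM in control tumors (0.52 ± 0.14, adjusted p = 0.00946). In 7 of 8 control tumors Cxcl10 was below every knockout tumor, and control replicate 2 stood among the knockout values at 51.0 CPM. Cxcl9 measured 56.0, 136 and 167 CPM in knockout tumors and 43.8, 82.4 and 106 CPM in control tumors (0.63 ± 0.25, adjusted p = 0.0609). Cxcl11 measured 10.3, 18.6 and 23.1 CPM in knockout tumors and 6.79, 10.47 and 18.1 CPM in control tumors (0.52 ± 0.23, adjusted p = 0.0848). Cxcl9 and Cxcl11 had fold changes of the same size as Cxcl10 and a wider spread between tumors of a group.

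Among the CC chemokines, Ccl4 measured 6.08, 9.02 and 11.2 CPM in knockout tumors and 3.03, 5.35 and 8.31 CPM in control tumors, which is higher by 0.80 ± 0.19 on the log2 scale (edgeR adjusted p = 0.00312). Ccl5 measured 10.4, 11.2 and 17.5 CPM in knockout tumors and 3.89, 5.91 and 13.2 CPM in control tumors (0.80 ± 0.25, adjusted p = 0.0185). Only knockout replicate 5 lay above all control tumors for Ccl5, and 6 of 8 control tumors lay below all knockout tumors. Ccl3 measured 4.52, 5.71 and 7.44 CPM in knockout tumors and 1.78, 4.60 and 7.04 CPM in control tumors, which was not called (0.32 ± 0.23, adjusted p = 0.290). The annotated spans of Ccl3 (chromosome 11 from 83647843 to 83649378) and Ccl4 (83648624 to 83664683) overlap, so the split of reads between these genes is uncertain.

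**Figure D3:**
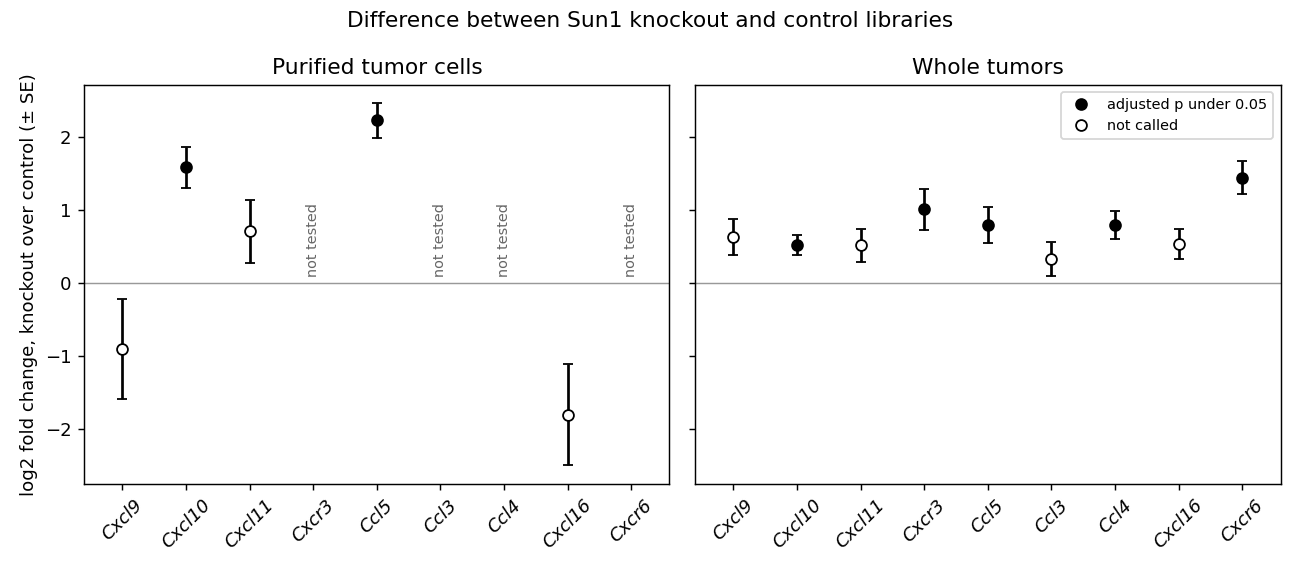
Log2 fold change of knockout over control with its standard error, in purified tumor cells (left) and whole tumors (right); filled points have an edgeR adjusted p under 0.05. In purified cells Cxcl10 (1.58) and Ccl5 (2.23) are called, and in whole tumors Cxcl10, Cxcr3, Ccl5, Ccl4 and Cxcr6 are, at 0.52 to 1.44.

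Leukocyte content moved with these tumor differences. Ptprc measured 156, 171 and 241 CPM in knockout tumors and 72.2, 121 and 153 CPM in control tumors without overlap, and all 6 leukocyte markers and 10 of 12 T cell markers were higher in knockout tumors. So were 5 of 6 mast cell, 3 of 6 NK cell, 4 of 10 macrophage, 3 of 6 tested dendritic cell, 2 of 5 tested endothelial and 4 of 5 skeletal muscle markers, and 0 of these were lower. The 1 B cell marker tested was higher, and of 2 tested neutrophil markers 0 were called. Of 7 fibroblast markers 0 were higher and 1 lower, and of 5 tested colon epithelium markers 0 were higher and 2 lower. Over all 13752 genes 18.1% were higher and 19% lower. The muscle markers summed to 2.42, 13.9 and 99.2 CPM in knockout tumors and 1.15, 2.67 and 12.1 CPM in control tumors, and the part of muscle in the differences was not tested. The geometric mean of Cd3d, Cd3e and Cd3g, the signalling chains of the T cell receptor, was 9.20, 11.7 and 16.5 CPM in knockout tumors and 3.52, 4.78 and 8.39 CPM in control tumors, also without overlap. With Ptprc as a covariate, which itself separates the genotypes, Cxcr6 stayed higher at 0.66 (edgeR adjusted p = 0.0236), Cxcl16 was lower at -0.31 (adjusted p = 0.0453), and the other 7 members were not called. With the CD3 level as a covariate 0 of 9 members were called, and Cxcr6 stood at -0.0146. Per unit of Ptprc, Cxcr6 had a median ratio of 0.137 in knockout tumors (0.0932 to 0.170) and 0.0716 in control tumors (0.0560 to 0.111). For Cxcl16 the ratio was 0.580 in knockout tumors (0.446 to 0.617) and 0.602 in control tumors (0.503 to 0.696), and for Cxcl10 it was 0.247 (0.162 to 0.370) and 0.266 (0.202 to 0.390) in knockout and control tumors. Leukocyte content and genotype cannot be told apart in these fits.

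The tumor numbers that the submitters gave fall in 2 runs, and the labels do not say what the runs mean. In the run with 4 knockout and 3 control tumors the log2 fold changes were 0.26 for Cxcl10, 1.02 for Cxcr3, 0.68 for Ccl5, 0.69 for Ccl4 and 1.33 for Cxcr6, and 0 members were called by the edgeR test (the smallest adjusted p was 0.0947, for Cxcl9 at 0.95). In the run with 3 knockout and 5 control tumors they were 0.75 for Cxcl10, 1.02 for Cxcr3, 0.91 for Ccl5, 0.96 for Ccl4 and 1.58 for Cxcr6, and Cxcl10, Ccl4 and Cxcr6 were called. All 9 fold changes were above 0 in both runs. This split was chosen after the data had been seen.

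The knockout effect on Cxcl10 and Ccl5 was larger in purified cells than in whole tumors, by 1.07 ± 0.32 and 1.43 ± 0.44 on the log2 scale in the test of the interaction (edgeR adjusted p = 0.0431 and 0.0459). These were 2 of 9 members higher and 0 lower, beside 4.63% higher and 3.64% lower (8.27% in all) over 15094 genes. Both calls sit at the threshold. Neither was called without the filter on low counts or against control line 1 alone, and leaving out single libraries gave adjusted p values up to 0.360 for Cxcl10 and 0.185 for Ccl5. The 2 comparisons in it use different libraries, and tumors of control line 2 were not analysed here.

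Other genes of the chemokine system in whole tumors moved in both directions, beside 18.1% higher and 19% lower over all 13752 genes tested. Of 14 further chemokines of lymphocytes and dendritic cells 6 were tested and 3 were higher in knockout tumors. They were the fibroblast chemokine Cxcl12 (19.0 CPM in knockout and 10.1 CPM in control tumors, log2 fold change 0.92 ± 0.21, edgeR adjusted p = 0.0031), Cxcl14 (44.5 CPM in knockout and 18.4 CPM in control tumors, 1.28 ± 0.26) and Ccl25 (4.14 and 2.93 CPM in knockout and control tumors, 0.51 ± 0.18). Of 15 myeloid chemokines 11 were tested, 4 were higher and 4 lower. Ccl7 and Ccl8, ligands of monocyte receptors, and the eosinophil attractant Ccl11 rose by 0.67, 0.73 and 1.16, and Ccl2, Cxcl1 and Cxcl5 fell by 0.653, 0.926 and 1.06 on the log2 scale. Of 15 further receptors 9 were tested and 2 were higher. Xcr1 of cross-presenting dendritic cells measured 5.86 CPM in knockout tumors and 1.79 CPM in control tumors (1.71 ± 0.36), and the monocyte receptor Ccr2 measured 119 CPM in knockout tumors and 73.5 CPM in control tumors (0.71 ± 0.18).

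Enzymes and regulators that act on these chemokines gave mixed results in tumors, where 18.1% of all genes were higher and 19% lower. Dpp4, the peptidase that trims and weakens Cxcl9, Cxcl10 and Cxcl11, was 5.72 CPM in knockout tumors and 2.40 CPM in control tumors (log2 fold change 1.26 ± 0.17, edgeR adjusted p = 1.09e-05), and the elastase Mmp12 was 50.04 and 143 CPM in knockout and control tumors (-1.50 ± 0.28, adjusted p = 0.00108). The Cxcl16 sheddases Adam10 and Adam17 were not called (-0.05 ± 0.08 and -0.16 ± 0.11, adjusted p = 0.622 and 0.293). Ifng, the cytokine that induces the Cxcr3 ligands, was 9.45 CPM in knockout tumors and 4.48 CPM in control tumors (1.08 ± 0.22, adjusted p = 0.00121). Of the 8 interferon-gamma genes 4 were higher, Irf1, Irf8 and Socs1 with Ifng, and Jak1 and Jak2 were lower. Of 9 genes of receptor signalling 3 were higher, namely Rac2, Arrb2 and Rgs1, at 0.46 to 0.78.

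The members did not vary as 1 block between tumors of a genotype. Correlations were taken over the deviations of 15 tumors from their genotype mean on a log2 CPM scale, and they are descriptions of tumors that share their library and depth. Cxcl9 went with Cxcl16 (Pearson r = 0.811) more closely than with Cxcl10 (0.322), although both are Cxcr3 ligands. Cxcl10 went with Cxcl11 (0.765), and Ccl4 with Ccl3 (0.861) and Ccl5 (0.821). The weakest pair was Cxcl11 with Cxcl16 (0.11).

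Against markers, Cxcl16 followed Ptprc at r = 0.960, and the 3 genes most like it of 10180 searched were Ada (0.967), Ctss (0.964) and Ptprc itself. Cxcl9 was most like the class II antigen gene H2-Eb1 (0.915), Aoah and Dnase1l3. Cxcr6 followed Cd8a at 0.815 and was most like Nkg7 (0.886), a granule protein gene of cytotoxic lymphocytes, Klrk1 and Cd52. Cxcl10 followed the NK receptor gene Ncr1 at 0.753, and Ptprc at 0.275. It was most like the interferon-induced genes Sp100 (0.889), Irgm1 (0.857) and Psmb8 (0.854). Cxcl11 was most like Ly6c2, Glrx and Rtp4 (0.860 to 0.890). Ccl4 and Ccl5 followed Ifng at 0.865 and 0.815. Ccl4 was most like Atp6ap2, Ly6a and Ly6c1 (0.883 to 0.887), Ccl3 like Tmem203, Stx11 and Gla (0.889 to 0.904), Ccl5 like Tmem203, Btg2 and Psme2b (0.829 to 0.881), and Cxcr3 like Aph1b, Tmem14c and Samsn1 (0.808 to 0.872).

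**Figure D4:**
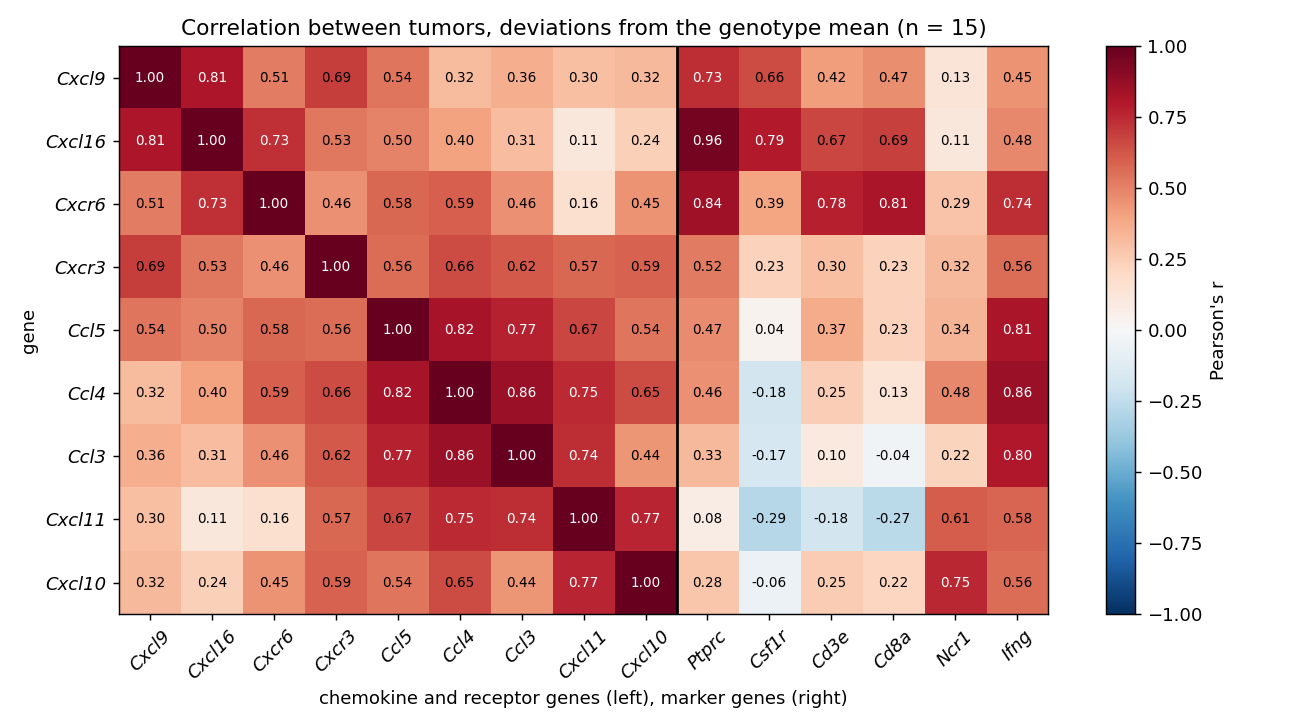
Pearson correlation between genes over 15 whole tumors, from deviations of log2 CPM from the genotype mean; the 9 genes are on the left and 6 marker genes on the right of the line. Cxcl16, Cxcl9 and Cxcr6 go with Ptprc at 0.735 to 0.960, Ccl5, Ccl4 and Ccl3 with Ifng at 0.799 to 0.865, and Cxcl10 with Ncr1 at 0.753.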

How the data were processed

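Per the labels' protocols, mRNA was enriched from total RNA of cultured CT26 cells, whole tumors and purified tumor cells and sequenced on an Illumina instrument with paired reads. Per the submitters' processing notes, FastQC, STAR, RSEM and DESeq2 were used on mm10; the sources used here give no versions. Per the file headers, the tables that the authors deposited for each library hold an expected count, RSEM's unscaled estimate of the reads of a gene, and a TPM value. The authors' comparison tables were not used, and 0 columns were left unmapped.

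All 24 libraries were grouped from the labels. Expected counts were rounded and fitted over all genes with edgeR 4.0.16 in R 4.3.3: scaling by TMM, a filter by filterByExpr (at least 10 counts in enough libraries and 15 in total), robust quasi-likelihood F tests, two-sided, with Benjamini-Hochberg adjustment at 0.05. Each comparison used its own libraries, with both control lines of purified or cultured cells as 1 arm, a term for the line between purified and cultured cells, and the interaction of setting and genotype for the difference of effects. Printed CPM values use TMM factors over all 24 libraries. Counting intervals are 95% exact intervals for the ratio of summed counts. Correlations used a prior count of 2 and genes averaging 5 CPM or more in tumors.

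The members and lists were chosen with earlier results of these data known. Besides the members, named genes are those of each chemokine list with the highest mean or the smallest p in tumors, the most abundant markers of each marker list and the 3 genes most like a member; other genes named were chosen after their values were seen. Grk2 is listed under its older symbol Adrbk1. A receptor and an interferon pathway gene are not reported here and were left out of their lists. DESeq2 1.42.0, other size factors, no filter, leaving out each library, a replicate block, control line 1 alone and leukocyte covariates were alternatives. Libraries of a group differed by a chi-square per gene of at least 7.38, so none was counted as a repeat of another. The 7 main edgeR fits were also run on counts simulated with the spread fitted to these data, and the alternatives were not.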

Additional observations from a re-analysis of the deposited data

Results flagged for a closer look

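Among 18 groups of 7 or 8 tumors, 1 for each gene and genotype, 2 held a library far from the others, where chance flags about 1 in 20 groups. Ccl5 stood at 17.5 CPM in knockout tumor 5, the highest of its group, where the other knockout tumors lay between 10.4 and 12.9 CPM. Cxcl10 stood at 51.0 CPM in control tumor 2, the highest of its group, where the other control tumors lay between 28.1 and 33.1 CPM.

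The knockout effect differed between purified cells and whole tumors for Cxcl10, by 1.07 on the log2 scale, and for Ccl5, by 1.43, in the test of the interaction (edgeR adjusted p = 0.0431 and 0.0459).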

How the results depend on the processing

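In whole tumors the 5 called members kept their call under other size factors, library size alone, no filter, DESeq2, a replicate block and each fit without 1 library (5 to 7 members called, 4523 to 5158 genes). Under the block 7 members were called. The block also called Cxcl10 higher in purified cells than in tumors of the knockout line (0.29, adjusted p = 0.0389). With the Ptprc covariate 1351 genes and 2 members were called, and Cxcl9 (-0.132), Ccl3 (-0.0671) and Cxcl16 (-0.309) turned negative. With the CD3 covariate 133 genes and 0 members were called, and Cxcl9 (-0.0910), Ccl5 (-0.0982), Ccl3 (-0.0154), Cxcl16 (-0.461) and Cxcr6 (-0.0146) turned negative. Both covariates separate the genotypes. Within the runs of tumor numbers, chosen after seeing the data, 2760 genes and 0 members were called in the first and 2140 genes and 3 members in the second, with fewer tumors in each. A term for the run left 5 members called.

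In purified cells the count of called genes was 908 without the filter, 1139 by DESeq2, 303 with a replicate block, 2896 against control line 1 alone and 72 to 540 without 1 library (1 to 2 members; 1 without the filter). Without 1 library, Cxcl11 ranged from -0.0633 to 1.21 between genotypes and from -0.595 to 0.70 in the interaction, and Cxcl10 from -0.198 to 0.48 between purified cells and tumors of the knockout line; each lowest value was without knockout library 2. In culture 8 genes were called by library size, 95 without the filter and 49 by DESeq2. The interaction called 2 members, but 1 with RLE size factors, 0 without the filter, 4 by DESeq2, 0 against control line 1 alone and 0 to 2 without 1 library, with 1915 genes by DESeq2 and 254 to 1365 without 1 library (1249 in all). The causes were not tested.

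Same-numbered libraries did not deviate together throughout (7 tumor pairs with r of -0.113 to 0.223, 2 of them over 0.1, and 6 purified pairs with -0.064 to 0.0692). With 2 libraries per purified group the deviations mirror each other, so the purified pairs cannot show a pairing. Whether numbers pair samples was left undecided, and the main fits used no pairs. Cultured cells could not be fitted without 1 library, with a block or against 1 control line. Genes with few counts in purified cells have fold changes set by those counts.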
